A study of Bos taurus with 12 samples.

Results

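A set of 10 genes of the route from propionyl-CoA to succinyl-CoA, and of the supply of its cobalamin cofactor, was followed in the liver of newborn calves: PCCA, PCCB, MCEE, MMUT, MMAA, MMAB, MMADHC, MMACHC, LMBRD1 and CD320. They were chosen by the known function of their products, with earlier results of these data known, and make up 10 of the 30336 genes in the count files. All 10 passed the filter on low counts, with at least 140 reads in every library.

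In grown ruminants propionate from the rumen is the main precursor of hepatic glucose, and propionyl-CoA also comes from the breakdown of valine, isoleucine, methionine and odd-chain fatty acids. Propionyl-CoA carboxylase, a biotin enzyme built from PCCA and PCCB subunits, makes methylmalonyl-CoA, MCEE turns it into the other stereochemical form, and MMUT converts that form to succinyl-CoA with adenosylcobalamin. Cobalamin enters cells through CD320, leaves the lysosome through LMBRD1 and its partner ABCD4, is processed by MMACHC and directed by MMADHC, and is made into the mitochondrial cofactor by MMAB and handed to MMUT with the help of MMAA. The other cobalamin enzyme, methionine synthase (MTR), uses methylcobalamin to make Met, the amino acid whose supply differed between the groups.

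Liver was taken by puncture biopsy at 4 d of age from 12 heifer calves, all daughters of Holstein cows and all reared alike after birth. The dams of 6 calves had received a control diet without added Met (CON), and the dams of the other 6 the same diet with ethyl-cellulose rumen-protected Met (Mepron) for the last 28 d before calving (MET). The comparison asks whether the Met supply of the dam is followed by a difference in the calf liver transcriptome. Polyadenylated RNA was sequenced from one end with strand information. The treatment was given to the dam, so that the calves are a model of maternal supply and did not themselves receive the product.

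The libraries held 8277789 to 10397604 counted reads. Between CON libraries 1 and 4 the reads per gene differed hardly beyond counting error (chi-square per gene of 1.31), and so did those of MET libraries 1 and 3 (1.23), against 23.3 to 122 for the other 64 pairs of libraries. These near-identical libraries entered as 1 sample per pair, so that means ± SD are over 5 CON and 5 MET samples and the diet tests of the 10 genes were run over the 12 libraries and again over the 10 samples. All CON libraries carried one first index and all MET libraries another, and index and diet cannot be told apart. Levels are CPM, reads per library scaled to a common total after TMM normalization, and a gene was called when the quasi-likelihood test of edgeR gave an FDR (Benjamini-Hochberg, over all genes) of at most 0.10.

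The tissue label was checked against 8 hepatocyte markers, among them ALB (albumin) at 30400 to 72300 CPM, and each of the 8 was at 595 CPM or more. The summed level of these markers was 136000 to 184000 CPM in CON and 111000 to 145000 CPM in MET samples, with 1 of the 8 called lower (APOB) and 6 fitted below 0. The 8 Kupffer cell and macrophage markers summed to 1140 to 1580 CPM in CON and 1340 to 1790 CPM in MET, with 1 called higher (C1QB) and all 8 fitted above 0. Stellate cell and fibroblast markers summed to 571 to 865 CPM in CON and 434 to 717 CPM in MET, and 0 of 6 were called while all 6 were fitted below 0. Cholangiocyte markers summed to 50.8 to 78.1 against 30.5 to 67.8 CPM, with 1 of 4 tested called lower (CFTR), and endothelial markers to 231 to 384 against 208 to 331 CPM, with 0 of 5 called. Lymphocyte markers summed to 24.8 to 49.6 against 43.1 to 51.0 CPM and erythroid markers to 7.58 to 961 against 57.0 to 459 CPM, and none of the 3 and 2 tested was called. The calls of APOB, C1QB and CFTR are over the 12 libraries, where 4.41% of all genes were called. They were lost over the 10 samples (FDR of 0.189, 0.213 and 0.195) and after removal of the trend of level on gene length (0.374, 0.131 and 0.168). The part of these marker differences in the results that follow was not tested, and in whole tissue fewer cells of a type and less RNA per cell cannot be told apart.

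MCEE, the epimerase, was higher and PCCA, the carboxylase subunit that carries biotin, was lower in MET calves over the 12 libraries, and the other 8 genes did not pass the test. These 2 of 10 genes compare with 4.41% of the 13212 genes tested that were called in either direction, 2.09% higher and 2.32% lower. Over the 10 samples 0 of 10 were called, as were 0.0% of the 13242 genes tested. MCEE and PCCA had an unadjusted p of at most 0.05 there, as did 16.3% of all genes, and DESeq2 called both over the 10 samples, among 5.71% of the genes for which it gave an adjusted p. MCEE was the 1 gene of the 10 whose CON and MET samples did not overlap, against 3.71% of all genes. The median log2 fold change of the 10 genes was 0.015 over the 12 libraries and -0.0031 for all genes.

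**Figure D1:**
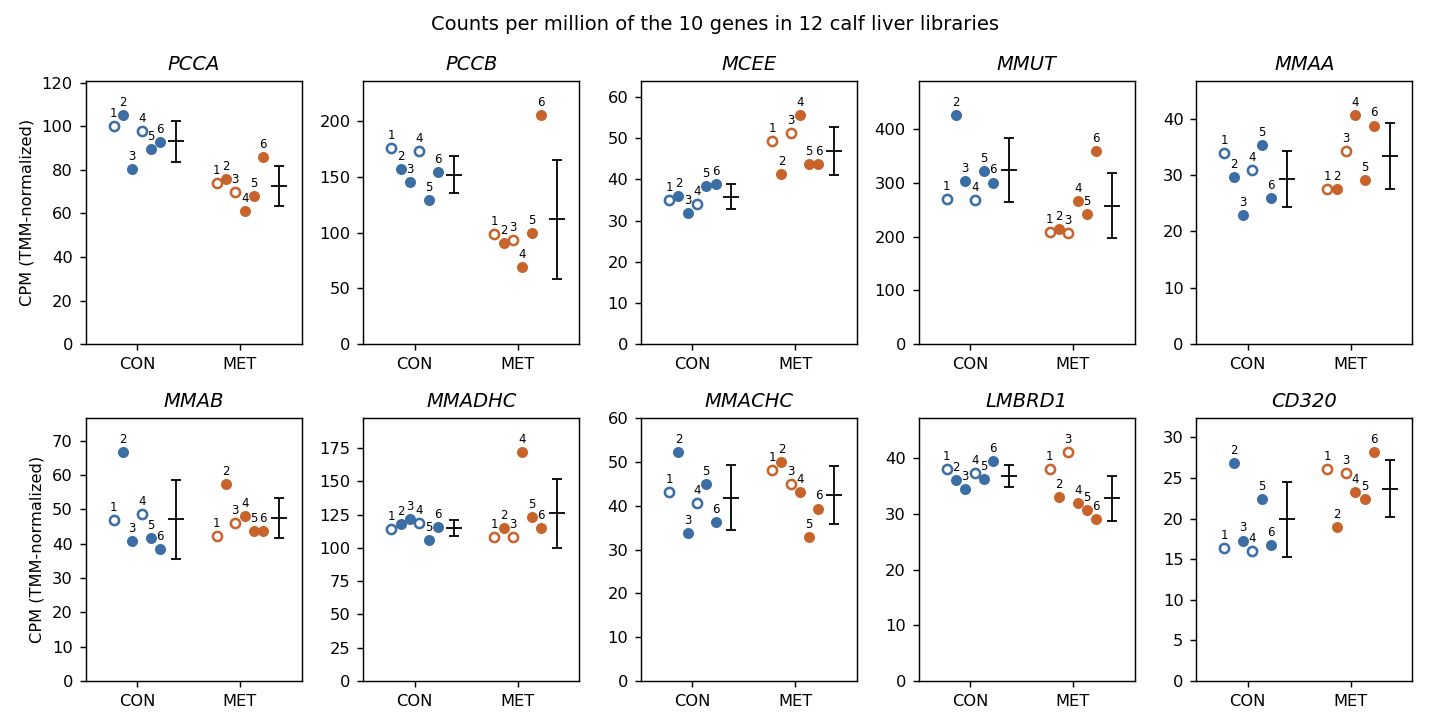
CPM (vertical axes, each from 0) of each of the 10 genes in the 6 CON and 6 MET libraries, numbered by replicate, with open circles for the near-identical libraries and black bars for the mean ± SD of 5 samples per diet. MCEE lies between 31.7 and 38.8 CPM in CON and between 41.2 and 55.5 CPM in MET samples, and PCCB of MET library 6 stands at 205 CPM above the other MET libraries.

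Per kilobase of exon, the highest of the 10 genes were MMUT, with 104 ± 23.8 RPKM (SD, n = 10 samples of both diets), and MMADHC, with 92.5 ± 14.2 RPKM. They stood above 95.3% and 94.9% of the genes tested. MMADHC was above the next gene, PCCB (62.3 ± 20.1 RPKM), in 9 of 10 samples, whereas MMUT and MMADHC differed by less than their spread, and MMUT was the higher in 5 of 5 CON but 1 of 5 MET samples. PCCB, MCEE (50.5 ± 8.89 RPKM) and MMAB (48.2 ± 8.79 RPKM) did not differ among themselves beyond their spread, and PCCB was above MCEE in 5 of 5 CON but 1 of 5 MET samples. MCEE was above MMAB in 2 of 5 CON and 4 of 5 MET samples. MMAB was above PCCA (34.0 ± 5.75 RPKM) in 10 of 10 samples, and PCCA and MMACHC (31.7 ± 4.97 RPKM) were within their spread, with PCCA the higher in 5 of 5 CON and 2 of 5 MET samples. MMACHC was above MMAA (19.9 ± 3.57 RPKM) in 10 of 10 samples. MMAA, CD320 (19.1 ± 3.82 RPKM) and LMBRD1 (17.5 ± 1.83 RPKM) were the lowest and not told apart by their spread, with CD320 above LMBRD1 in 2 of 5 CON and 5 of 5 MET samples and LMBRD1 still above 77.7% of the genes tested. From MMUT to LMBRD1 the mean RPKM differed 5.94-fold.

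**Figure D2:**
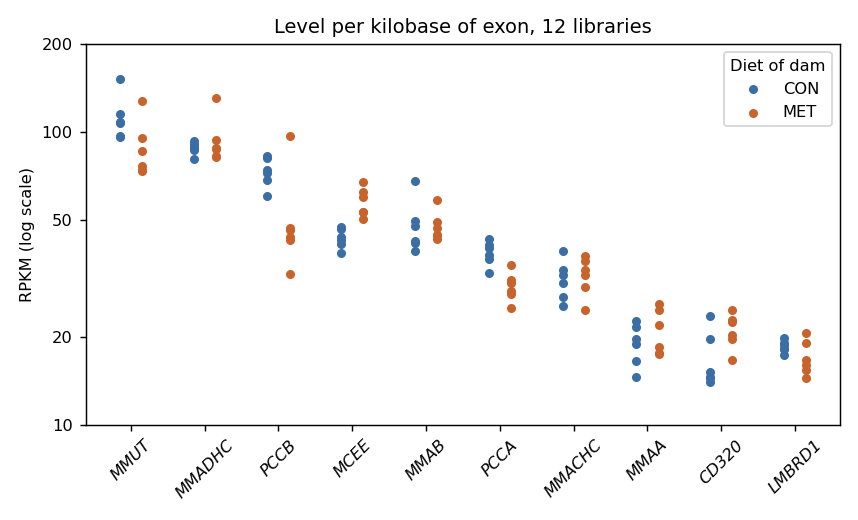
RPKM (log scale) of the 10 genes in the 12 libraries, ordered by mean, with CON in blue and MET in orange. MMUT and MMADHC lead with means of 104 and 92.5 RPKM, and MMAA, CD320 and LMBRD1 close the order at 19.9, 19.1 and 17.5 RPKM.

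PCCA (gene 614302, chr12:80793547-81155394, plus strand, UMD 3.1.1) was lower in MET calves. The CON samples measured 80.2, 89.5, 92.6, 98.8 and 105 CPM, and the MET samples 61.1, 67.8, 71.9, 76.0 and 85.7 CPM. All 5 MET samples were below the CON median, and the groups overlapped only where MET 6 was above CON 3. The means were 93.2 ± 9.4 CPM in CON and 72.5 ± 9.19 CPM in MET (SD, n = 5). The log2 fold change was -0.38 over the 12 libraries (SE 0.102, FDR 0.0826 by edgeR's quasi-likelihood test), and -0.36 over the 10 samples (SE 0.121, FDR 0.201). The call was lost in 10 of the 12 fits that left out a library, with FDR of 0.102 to 0.147, and held without CON 3 or without MET 6, at an FDR as low as 0.0799. It was also lost by library size only (FDR 0.184), without a filter on low counts (0.14) and with the replicate number as a block (0.173).

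PCCB (gene 515902, chr1:134035256-134130529, minus strand), the other carboxylase subunit, was not called. Its CON samples measured 129, 145, 154, 157 and 175 CPM, and 4 MET samples 69.5, 90.7, 95.9 and 100 CPM, while MET 6 measured 205 CPM. Those 4 MET samples were below every CON sample, and MET 6 was above every CON sample. The means were 152 ± 16.7 CPM in CON and 112 ± 53.3 CPM in MET, and the log2 fold change in 12 libraries was -0.51 (SE 0.214, FDR 0.202) and -0.44 over the 10 samples (SE 0.248, FDR 0.403). Without MET 6 the log2 fold change was -0.79 with an FDR of 0.0568 over the other libraries, and -0.77 with an FDR of 0.254 over the other samples. MET 6 was also the highest MET sample in PCCA, MMUT and CD320 and the lowest in LMBRD1 and MMAB, so it was not high in all 10 genes.

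MCEE (gene 508170, chr21:27897955-27905993, minus strand), the epimerase, was higher in MET calves. The CON samples measured 31.7, 34.4, 36.0, 38.4 and 38.8 CPM, and the MET samples 41.2, 43.7, 43.7, 50.3 and 55.5 CPM. Each MET sample was above each CON sample. The means were 35.8 ± 2.94 CPM in CON and 46.9 ± 5.87 CPM in MET, a fold of 1.33 over the 12 libraries (log2 fold change 0.41, SE 0.0951, FDR 0.0653) and 1.31 over the 10 samples (0.39, SE 0.112, FDR 0.18). The call held in 9 of the 12 fits that left out a library, and was lost without CON 1 (FDR 0.119), CON 4 (0.133) or MET 1 (0.101). These libraries all belong to the near-identical pairs, whose members count as separate libraries in the 12-library fit. The call was also lost by library size only (FDR 0.101) and with the replicate number as a block (0.169).

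MCEE is the shortest of the 10 genes, with 819 exonic bases, and in these libraries short genes were on average higher in MET. Over the 12 libraries the median log2 fold change was 0.20 for genes under 1000 bases, 0.096 from 1000 to 2000 bases, 0.011 from 2000 to 3000 bases and -0.081 above. Over the 10 samples 21.9% of the genes under 1000 bases had a log2 fold change as high as that of MCEE, and 12.8% of genes of 2000 to 3000 bases had one as low as that of PCCA. After each sample's trend of level on length was removed, MCEE was at 0.27 on the log2 scale over the 12 libraries (FDR 0.20) and 0.24 over the 10 samples (FDR 0.393). PCCA, with 2434 exonic bases, had -0.37 (FDR 0.11) and -0.34 (FDR 0.266) in the same fits, and 0 of the 10 genes were called, against 1.85% of all genes over the 12 libraries.

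**Figure D3:**
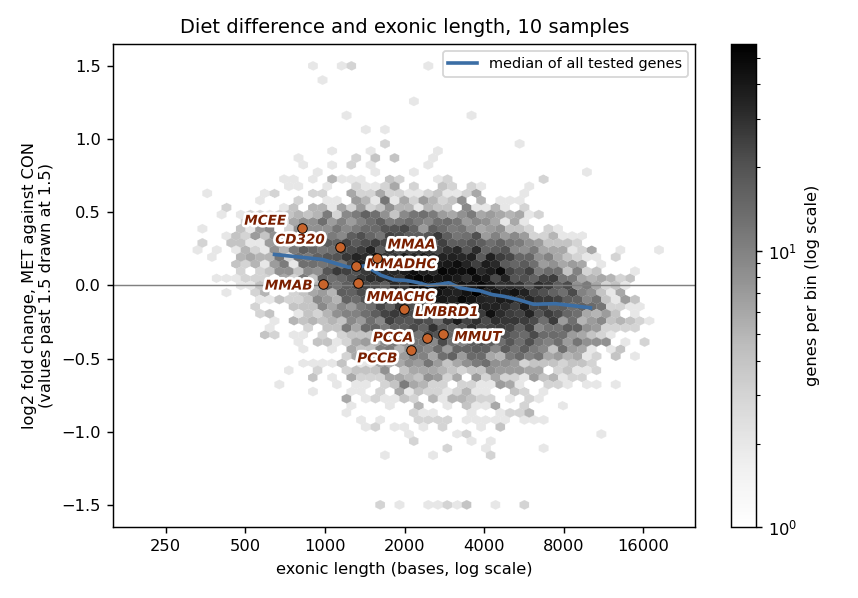
Log2 fold change of MET against CON over the 10 samples (vertical axis) against exonic length in bases (log scale) for 13242 genes, with grey for the number of genes, a blue line for the median along length and orange points for the 10 genes. MCEE (819 bases) lies above the median line, which is itself above 0 for short genes, and PCCA, PCCB and MMUT lie below it among genes of 2000 to 3000 bases.

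MMUT (gene 280871, chr23:21938479-21980172, minus strand), the mutase, was not called. Its CON samples measured 270, 301, 303, 322 and 426 CPM and its MET samples 208, 215, 243, 267 and 360 CPM. As for PCCB, 4 of the 5 MET samples were below every CON sample and MET 6 was not, but here CON 2 was higher still. The means were 324 ± 59.6 CPM in CON and 258 ± 61.2 CPM in MET, and the log2 fold change was -0.33 both over the 12 libraries (SE 0.159, FDR 0.253) and over the 10 samples (SE 0.179, FDR 0.386). Without MET 6 it was -0.47 and -0.48, without CON 2 it was -0.23 and -0.21, and it was not called in any of these fits.

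The 2 mitochondrial cobalamin genes did not pass the test. MMAA (gene 511673, chr17:12818446-12847234, minus strand), the GTPase that protects MMUT, measured 22.9 to 35.4 CPM in CON and 27.5 to 40.6 CPM in MET, with means of 29.3 ± 5.0 and 33.4 ± 5.92 CPM and an FDR of 0.572 both over the 12 libraries and over the 10 samples. MMAB (gene 617636, chr17:65882886-65892450, plus strand), the adenosyltransferase, measured 38.5 to 66.7 CPM in CON and 43.6 to 57.3 CPM in MET, with means of 47.1 ± 11.5 and 47.4 ± 5.88 CPM. Its log2 fold change was -0.011 over the 12 libraries and 0.0082 over the 10 samples, with a 95% interval of -0.34 to 0.35. CON 2 and MET 2 were the highest samples of their diets in MMAB.

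The 2 cytosolic genes did not pass the test either. MMADHC (gene 521533, chr2:46648517-46664676, plus strand), which directs cobalamin to the cytosol or the mitochondria, had means of 115 ± 5.88 CPM in CON and 126 ± 25.8 CPM in MET. MET 4 stood at 172 CPM and the other 4 MET samples at 108 to 123 CPM, so that without MET 4 the log2 fold change went from 0.094 to -0.023 over the libraries and from 0.13 to -0.0025 over the samples. MMACHC (gene 513433, chr3:101167827-101172831, minus strand), which strips the upper ligand of incoming cobalamin, had nearly the same mean in both diets, 41.9 ± 7.33 CPM in CON and 42.4 ± 6.65 CPM in MET. Its log2 fold change was 0.017 over the 10 samples, with a 95% interval of -0.30 to 0.34.

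At entry into the cell, CD320 (gene 505043, chr7:18183237-18187953, minus strand), the receptor of transcobalamin, was not called. The CON samples measured 16.2, 16.7, 17.3, 22.4 and 26.9 CPM, and the MET samples 19.0, 22.4, 23.3, 25.8 and 28.2 CPM. All 5 MET samples were above the CON median, and CON 2 was above 4 of them. The log2 fold change was 0.32 over the 12 libraries (SE 0.144, FDR 0.226) and 0.26 over the 10 samples (SE 0.163, FDR 0.45). Without CON 2 it was 0.44 with an FDR of 0.0967 over the other libraries, and it was not called over the other samples. LMBRD1 (gene 510495, chr9:8819655-8953828, minus strand), of the lysosomal exporter, measured 34.4 to 39.5 CPM in CON and 29 to 39.6 CPM in MET. Of the 5 MET samples 4 were below every CON sample, and the pair of MET 1 and 3 was at 39.6 CPM. The log2 fold change of LMBRD1 was -0.12 over the 12 libraries (FDR 0.506) and -0.16 over the 10 samples (FDR 0.468). Without MET 1 and 3 its unadjusted p (quasi-likelihood test) was at most 0.05 over the other samples, as for 2234 of 13350 genes, and it was not called.

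**Figure D4:**
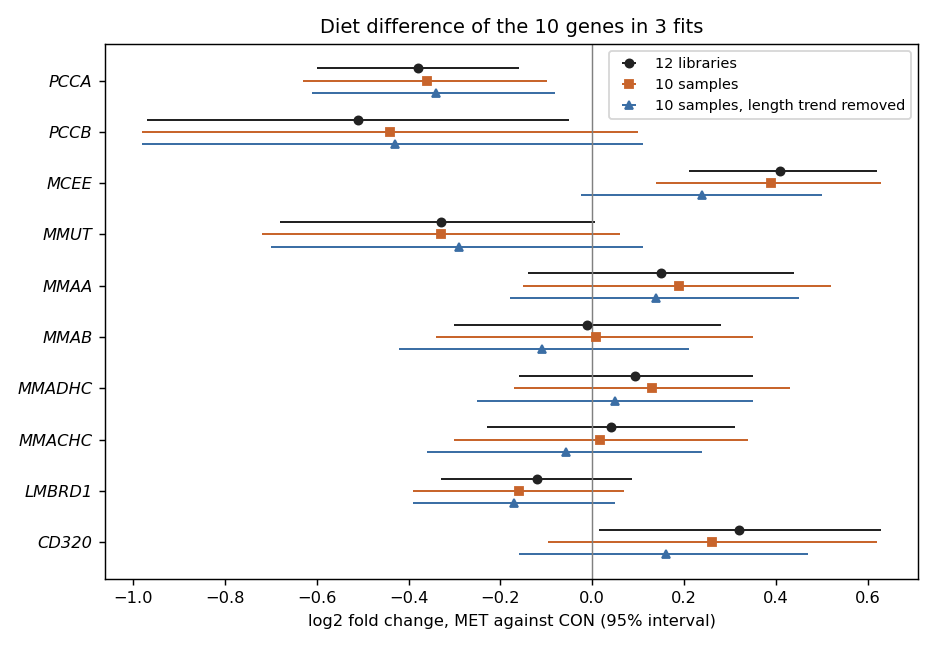
Log2 fold change of MET against CON (horizontal axis) with its 95% interval for the 10 genes, over the 12 libraries, over the 10 samples and over the 10 samples after removal of the length trend. The interval of PCCA lies below 0 in all 3 fits (-0.61 to -0.08 in the third), and that of MCEE lies above 0 except after the length trend is removed.

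Ratios of partner genes within a sample, which do not depend on how the libraries are scaled, were compared for 6 pairs by an exact two-sided permutation test over the 10 samples, whose smallest possible p is 0.00794. With all 10 samples and no length correction, the largest difference was in MCEE to MMUT, the consecutive epimerase and mutase. The log2 ratio of CPM was -3.56, -3.25, -3.06, -2.97 and -2.95 in CON and -3.04, -2.47, -2.38, -2.26 and -2.04 in MET samples, so that 4 of 5 MET samples were above every CON sample, while MET 6 was below CON 6 and the CON 1 and 4 pair. The difference of the means was 0.72 (exact permutation p = 0.0238, adjusted p = 0.143 over the 6 ratios), a 1.65-fold change of the ratio. Over the 12 libraries, where the near-identical libraries count as separate, the difference was 0.75 with an adjusted p of 0.0519 by the same test. Over the 10 samples without MET 6 it was 0.87 (adjusted p = 0.0476, exact permutation test), and without CON 1 and 4 it was 0.77 (adjusted p = 0.0794, exact permutation test). Without CON 2 it was 0.62 (adjusted p = 0.19, exact permutation test), and after removal of the length trend it was 0.54 (adjusted p = 0.127, exact permutation test).

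The ratio of the carboxylase subunits, PCCA to PCCB, had a mean log2 of -0.70 ± 0.15 in CON and -0.54 ± 0.43 in MET (SD, n = 5). The difference was 0.17 (exact permutation p = 0.452, adjusted p = 0.552), and 0.21 over the 12 libraries (adjusted p = 0.373). MET 6 was the lowest of the 10 samples at -1.26 and the other 4 MET samples lay between -0.56 and -0.19, and without MET 6 the difference was 0.35 (exact permutation p = 0.0317, adjusted p = 0.0635). It was 0.082 without MET 4 and 0.099 without MET 2. The ratio of MMUT to MTR, the 2 cobalamin enzymes, was lower in MET by a mean log2 of -0.65 (exact permutation p = 0.0556, adjusted p = 0.143), from 3.16 ± 0.45 in CON to 2.5 ± 0.45 in MET. Over the 12 libraries it was -0.56 (adjusted p = 0.113, exact permutation test). Leaving out 1 sample gave adjusted p from 0.0635 without MET 6 and 0.0794 without CON 1 and 4 to 0.206 without CON 2 and 0.254 without CON 5, by the exact permutation test. After removal of the length trend the difference was -0.78 (adjusted p = 0.0952, exact permutation test).

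LMBRD1 to ABCD4, the partners of lysosomal exit, differed by -0.19 (exact permutation p = 0.0714, adjusted p = 0.143), and by -0.18 over the 12 libraries (adjusted p = 0.113). Leaving out 1 sample gave adjusted p from 0.0794 without CON 1 and 4 and 0.0952 without MET 6 to 0.27 without CON 6, by the exact permutation test. After removal of the length trend it was -0.23 (adjusted p = 0.0952, exact permutation test). MMAA to MMAB differed by 0.16 and MMACHC to MMADHC by -0.094, with adjusted p of 0.552 and 0.627 in the exact permutation test. The first was 0.035 without CON 2 and 0.29 without MET 2, and the second 0.011 without MET 4. Without the length correction, no ratio passed an adjusted p of 0.10 with all 10 samples.

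**Figure D5:**
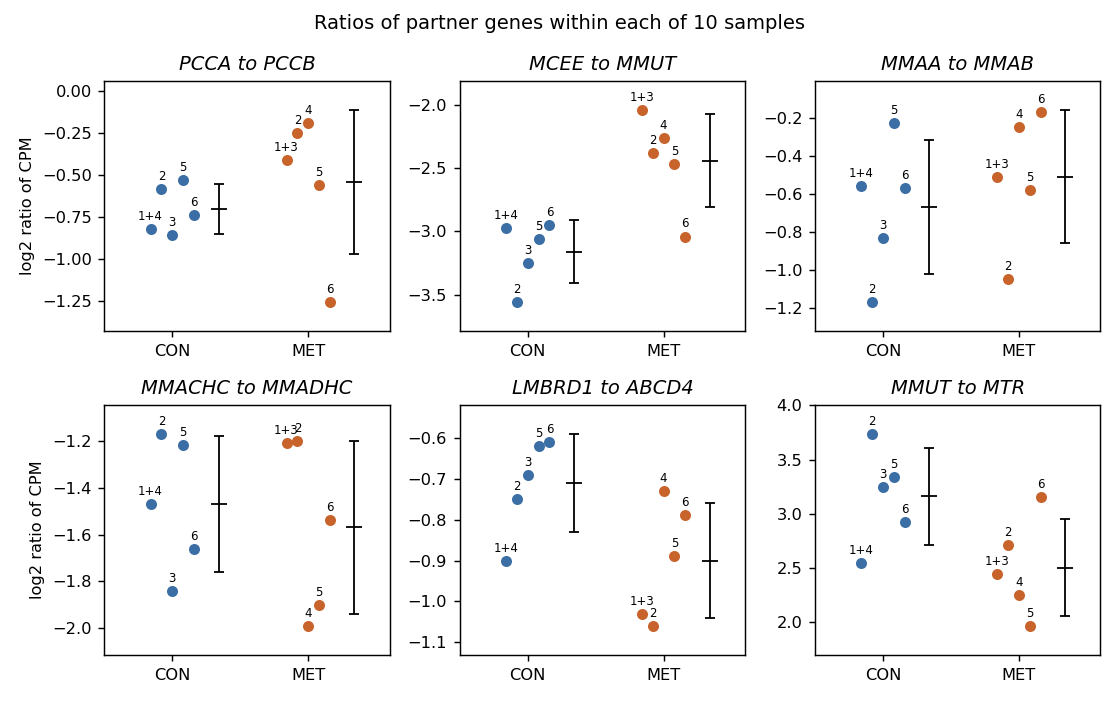
Log2 ratio of CPM (vertical axes) of 6 pairs of partner genes in the 5 CON and 5 MET samples, numbered by replicate, with black bars for mean ± SD. The ratio of MCEE to MMUT is between -3.56 and -2.95 in CON and between -3.04 and -2.04 in MET, and MET 6 is the lowest MET sample in that ratio and in PCCA to PCCB.

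Within the diets, the levels of partner genes were compared across the 10 samples after each diet's mean was subtracted. PCCA and PCCB had Pearson r = 0.75 (permutation p = 0.0211, adjusted over 6 pairs 0.0633) and Spearman rho = 0.70 (permutation p = 0.0293, adjusted 0.0879). Without MET 6 and MET 4, the samples farthest from the median, r was 0.35, which was not tested. LMBRD1 and ABCD4 had r = 0.85 (permutation p = 0.0066, adjusted 0.0396) and rho = 0.83 (permutation p = 0.00861, adjusted 0.0517), and r = 0.58 without MET 1 and 3 and MET 6. In the other 4 pairs r was between -0.14 and 0.05, with adjusted p of 0.95 in each by the permutation test, among them MCEE with MMUT (r = 0.027) and MMACHC with MMADHC (r = -0.14).

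Of 33 genes that feed, drain or serve the same route, 31 were tested, and 0 were called higher and 1 lower over the 12 libraries, against 2.09% and 2.32% of all genes. The median log2 fold change of the 31 was -0.011. CBLIF and CUBN, which take up dietary cobalamin in the gut, were below the filter on low counts. The gene called was ALDH6A1, the methylmalonate semialdehyde dehydrogenase that makes propionyl-CoA from valine. It measured 36.6, 40.2, 48.7, 51.1 and 56.2 CPM in CON and 17.8, 22.6, 31.8, 31.8 and 36.4 CPM in MET, so that the diets did not overlap, as in 3.71% of all genes. Its log2 fold change was -0.71 over the 12 libraries (SE 0.166, FDR 0.0674) and -0.73 over the 10 samples (SE 0.193, FDR 0.175). The call was lost without CON 1 (FDR 0.119), CON 3 (0.103), CON 4 (0.133) or MET 1 (0.101), by library size only (0.101) and with the replicate number as a block (0.15). After the length trend was removed it held over the 12 libraries (0.0825), while the FDR over the 10 samples was 0.218.

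The other 6 sources of propionyl-CoA (ACSS3, ACADSB, HSD17B10, ACAT1, HIBCH and HIBADH) were not called. Over the 12 libraries 4.41% of all genes were called, so 0 calls in lists this short do not show that a step was unchanged. Among genes of biotin supply and the other biotin carboxylases 0 of 6 were called, and pyruvate carboxylase (PC), the entry to gluconeogenesis from pyruvate, had 435 ± 45.9 CPM in CON and 624 ± 341 CPM in MET with an FDR of 0.30 with 12 libraries and 0.387 with 10 samples. MET 4 held 1210 CPM of PC and the other MET samples 353 to 601 CPM, and without MET 4 the log2 fold change went from 0.48 to 0.14 over the libraries and from 0.52 to 0.13 over the samples. Of 4 genes of methylmalonyl-CoA side reactions 0 were called. CLYBL, the citramalyl-CoA lyase of itaconate breakdown, is named because it had the lowest p of this list over the 10 samples. It had 7.03 ± 0.697 CPM in CON and 5.69 ± 0.298 CPM in MET, and an FDR of 0.211 with 12 libraries and 0.292 with 10 samples. The diets did not overlap in CLYBL, as in 3.71% of all genes.

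Downstream of MMUT, 0 of 3 subunits of succinyl-CoA ligase were called, where 4.41% of all genes were called over the 12 libraries. SUCLG1 had 168 ± 19.1 CPM in CON and 193 ± 43.1 CPM in MET, SUCLG2 284 ± 20.6 and 281 ± 39.4 CPM, and SUCLA2 18.2 ± 5.02 and 18.5 ± 4.86 CPM. MET 5 held 119 CPM of SUCLG1 and the other MET samples 199 to 228 CPM. The log2 fold change of SUCLG1 over the 10 samples was 0.20, and 0.13 to 0.33 when 1 sample was left out. Of 6 tested genes of cobalamin binding, uptake, exit and export 0 were called. Transcobalamin (TCN2), the plasma carrier that CD320 binds, was at 373 ± 53.5 CPM in CON and 404 ± 72.5 CPM in MET. ABCD4 was at 60.7 ± 6.13 and 62.1 ± 12.8 CPM. TCN1, the haptocorrin, was at 0.939 ± 0.505 and 1.99 ± 1.56 CPM with an FDR of 0.217 with 12 libraries and 0.32 with 10 samples. MET 4 held 4.6 CPM of TCN1 and the other MET samples at most 2.24 CPM, and without MET 4 the log2 fold change went from 1.04 to 0.56 over the libraries and from 1.08 to 0.53 over the samples. MTR had 36.2 ± 6.6 CPM in CON and 45.9 ± 12.5 CPM in MET with an FDR of 0.461 with 12 libraries and 0.40 with 10 samples. Its log2 fold change was 0.23 over the libraries (0.12 to 0.31 with 1 left out) and 0.34 over the samples (0.20 to 0.44 with 1 left out). Of the 2 methylcobalamin genes 0 were called, and 0 of the 3 factors that control MMACHC, among them THAP11 with 25.4 ± 3.86 and 26.9 ± 2.04 CPM.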

How the data were processed

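By the labels, liver RNA of 12 calves was measured, and each library was assigned to its diet and number by its label. According to the submitters' processing notes the authors used FastQC 0.11.15, STAR 2.5.3a and featureCounts of Subread 1.5.2, and the deposited files hold raw counts per gene on UMD 3.1.1, by strand and without normalization. Reads that fit several places or genes were not counted. No other gene's exons overlapped those of the 10 genes (0 found).

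Low genes were removed with the default filter of edgeR (minimum count 10, minimum total count 15). The diets were compared with edgeR 4.0.16 in R 4.3.3 (quasi-likelihood test, TMM, diet alone, robust estimation off). Near-identical library pairs (chi-square per gene below 3) had their reads summed in the fit over 10 samples and their CPM averaged in means. Ratios and correlations used log2 CPM with a prior count of 2. Ratios were tested over all 252 arrangements and correlations over the 14400 arrangements within diets. Alternatives were RLE and upper quartile factors, library size only, other filters, DESeq2 1.42.0, voom of limma 3.58.1, robust estimation, removal of a loess trend (span 0.5) on log2 exonic length, a replicate block and each library left out. The fits were also run on simulated libraries drawn independently, so without near-identical pairs, and that outcome is not reported here.

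The 10 genes and the lists were chosen with earlier results of these data known. Of related genes, ABCD4, MTR, TCN2 and the succinyl-CoA ligase subunits, every called gene and, in a list without one, the gene with the lowest p over 10 samples were named. Counted reads were 8277789 to 10397604 per library, and 3 reads equal at most 0.362 CPM, for counting error only. That the 12 libraries are separate calves comes from the labels, which do not account for the near-identical pairs. No genome sequence was used here, so GC content was not examined and no sequences are shown. Figures were drawn with Python 3.11.15.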

Additional observations from a re-analysis of the deposited data

Results flagged for a closer look

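In 4 of 42 groups of 5 samples (21 genes in each of the diets), the highest or lowest sample stood farther from the others than Dixon's limit for 5 values, 0.71 of the range. Chance gives about 1 in 20, or 2.1 of the 42. All 4 were MET groups. Over all genes, MET 5 differed from each other library by a chi-square per gene of 47.8 to 122, and MET 4 by 44.4 to 75.5. Pairs without MET 4 or MET 5 were at 23.3 to 50.4, the near-identical pairs aside. The part of this in the flagged values was not tested.

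PCCB in MET 6 was at 205 CPM, with the other MET samples at 69.5 to 100 CPM. MMADHC in MET 4 was at 172 CPM against 108 to 123 CPM. PC in MET 4 was at 1210 CPM against 353 to 601 CPM. SUCLG1 in MET 5 was the one low value, at 119 CPM against 199 to 228 CPM.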

How the results depend on the processing

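Over the 12 libraries (2 of the 10 genes and 583 of all genes called), the numbers called were 0 and 107 by library size only, 1 and 238 without a filter (PCCA was lost), 0 and 245 after removal of the length trend, and 0 and 6 with the replicate block. With DESeq2 the number for all genes was 1314. Leaving out 1 library gave 0 to 3 of the 10 genes and 26 to 565 genes, with 26 without CON 1 and 35 without CON 4, which form a near-identical pair. Over the 10 samples (0 and 0), DESeq2 called 2 and 639, and leaving out 1 sample gave 0 of the 10 and 0 to 39 genes, the 39 without MET 1 and 3. Replicate numbers gave no pairing: deviations of libraries of the same number correlated at r of -0.19 to 0.148. The fit with the replicate block gave FDR of 0.169 for MCEE, 0.173 for PCCA and 0.15 for ALDH6A1.

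MCEE and PCCA kept their direction in every fit, with log2 fold changes of 0.24 to 0.45 and of -0.44 to -0.31. Genes near 0 changed sign. Over the 12 libraries MMAB was at 0.044 by library size only, 0.0051 with voom and 0.005 with the replicate block, MMACHC at -0.039 and CENPQ at -0.011 without the length trend, SUCLG2 at 0.0073 by library size only, and CENPQ at -0.032 with voom and -0.0091 with the replicate block. Over the 10 samples upper quartile factors gave -0.012 for MMAB, -0.0031 for MMACHC, -0.0022 for SUCLA2 and -0.0032 for MPHOSPH10, and removal of the length trend gave -0.11 for MMAB and -0.058 for MMACHC. Without MET 1 and 3 MMACHC and MPHOSPH10 were both at -0.019, and without CON 1 and 4 SUCLA2 was at -0.071. Leaving out 1 library gave -0.077 to 0.11 for MMAB, -0.023 to 0.13 for MMADHC, -0.014 to 0.11 for MMACHC, -0.0074 to 0.13 for ABCD4, -0.091 to 0.017 for SUCLG2, -0.089 to 0.15 for SUCLA2, -0.0083 to 0.10 for MPHOSPH10 and -0.11 to 0.15 for CENPQ. Leaving out 1 sample gave -0.069 to 0.16 for MMAB, -0.0025 to 0.18 for MMADHC, -0.051 to 0.11 for MMACHC, -0.08 to 0.10 for ABCD4 (-0.0075 without MET 2), -0.11 to 0.026 for SUCLG2, -0.14 to 0.14 for SUCLA2, -0.054 to 0.081 for MPHOSPH10 and -0.23 to 0.087 for CENPQ.

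Of the ratios, MCEE to MMUT passed an adjusted p of 0.10 over the 12 libraries (0.75), where the near-identical libraries count as separate. It did not pass over the 10 samples (adjusted p = 0.143, exact permutation test). LMBRD1 to ABCD4 (-0.23) and MMUT to MTR (-0.78) passed over the 10 samples after removal of the length trend, where MCEE to MMUT went to 0.54. The causes were not tested. Leaving out 1 sample gave 0.082 to 0.35 for PCCA to PCCB, 0.62 to 0.87 for MCEE to MMUT, -0.23 to -0.15 for LMBRD1 to ABCD4, -0.82 to -0.51 for MMUT to MTR, 0.035 to 0.29 for MMAA to MMAB and -0.19 to 0.011 for MMACHC to MMADHC, with 0.011 without MET 4. Without CON 1 and 4 MCEE to MMUT was at 0.77 and MMUT to MTR at -0.81. CBLIF, with 0 to 4 reads per library, and CUBN, with 2 to 13, were removed by the filter on low counts, and TCN1 had 4 to 40.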

Other observations

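Transcription of 3 of the 10 genes starts within 1000 bases of the start of a gene on the opposite strand, and these neighbours were looked up after the values were seen. MCEE starts 726 bases from MPHOSPH10, a gene of ribosomal RNA processing, MMUT 119 bases from CENPQ, a kinetochore gene, and MMAB 198 bases from MVK, the mevalonate kinase. MPHOSPH10 was at 20.9 ± 2.97 CPM in CON and 21.2 ± 2.23 CPM in MET (SD, n = 5), and its log2 fold change in the 12 libraries was 0.048, where MCEE had 0.41. CENPQ was at 9.44 ± 2.39 and 9.03 ± 3.54 CPM, and MVK at 39.8 ± 14.9 and 34.5 ± 12.2 CPM. The differences between each gene and its neighbour were not tested.

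The spread between libraries of one diet, as edgeR's biological coefficient of variation, was taken over the 12 libraries. There the near-identical libraries count as separate, so it is not the spread over the 10 samples. Among the 10 genes it was smallest in LMBRD1 (13.4%) and MCEE (13.4%). PCCA had 15.0%, and PCCB had the largest of the 10 (27.2%), against a median of 19.6% over all genes tested. The value of PCCB holds the sample MET 6.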
